A study of Sus scrofa with 61 samples.

Results

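The actin cytoskeleton was followed through liver development with 5 genes: ACTB (beta-actin), CFL1 (cofilin 1), RDX (radixin), ACTR2 (actin-related protein 2) and CORO1C (coronin 1C). All probe-sets that the platform annotation assigns to these symbols were taken, which gave 5 of 6765 genes and 7 of 24123 probe-sets: 2 for ACTB, 2 for RDX and 1 for each of the others. The genes were chosen by measured values of these animals. ACTB, CFL1, RDX and ACTR2 were taken from the study's actin list of genes lower in young adults. The study kept on it only genes not regulated alike in offspring of the adequate protein diet. CORO1C was taken for its large fall in the weeks after birth. These changes are therefore described here without a test.

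Liver RNA of pigs born to, or taken from, German Landrace gilts on a low protein gestation diet (LP offspring) was measured on Affymetrix porcine arrays with 1 animal on each. The animals were 16 fetuses of 94 dpc (dies post conceptionem) and 14 piglets of 1 dpn (dies post natum), followed by 15 pigs of 28 dpn and 16 pigs of 188 dpn. All 61 animals share the LP exposure, and offspring of the adequate protein diet were not analysed here, so nothing below separates diet from development. The adjacent stages make up period I (94 dpc to 1 dpn), period II (1 dpn to 28 dpn) and period III (28 dpn to 188 dpn). Fetuses were taken by Caesarean section in a separate experiment from the born animals, and in period I these experiments and the stages cannot be told apart. Pigs at 28 dpn and 188 dpn were fasted overnight and killed by electrical stunning and bleeding. No fast is described at 1 dpn, and those piglets were killed by drug injection. Littermates were picked as a light and a heavy animal at 94 dpc and 1 dpn only. Males were castrated after 1 dpn, and the methods describe cross-fostering for the piglets kept beyond that stage. All these differences coincide with age in period II, so its changes cannot be assigned to age alone. Siblings, which the labels do not identify, occur within every stage and were treated as independent. Values are log2 of the deposited signal intensity, changes are later minus earlier stage, and the level of one probe-set cannot be set against that of another.

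Actin monomers assemble into filaments that give the cell cortex its shape, line the bile canaliculi of hepatocytes and carry migration and phagocytosis of the immune cells of the liver. ACTB encodes one of the cytoplasmic actins, nearly identical in protein to gamma-actin, the product of ACTG1. The Arp2/3 complex, of which ACTR2 encodes a subunit, starts new branches on existing filaments, cofilin severs and disassembles old ones and is switched off when LIM kinases phosphorylate it, and coronins bind filament sides and regulate Arp2/3 and cofilin. Radixin, with ezrin and moesin, ties filaments to membrane proteins and is abundant at the canalicular membrane of hepatocytes. In whole liver, fewer cells of a type and less RNA per cell cannot be told apart.

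The median signal of the arrays fell from a stage mean of 7.38 (SD 0.07) at 94 dpc to 7.23 (SD 0.07) at 1 dpn, 6.89 (SD 0.08) at 28 dpn and 6.73 (SD 0.15) at 188 dpn, since only the trimmed mean of each array had been set to a common value. All 7 hepatocyte markers examined lay above the array median at every stage. Arrays of one stage resembled each other with mean correlations between 0.859 and 0.907, and no pair of arrays correlated above 0.917. Stages were compared with limma, and a call required both P and the Storey q to be 0.05 or less. Because so many probe-sets changed, q can be smaller than P.

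In period I, 6 of the 7 probe-sets passed the filters on intensity and spread, and 2 were called higher and 2 lower at 1 dpn. CORO1C, one of those called higher, passed the intensity filter through 1 dpn alone. Over all 12227 probe-sets tested in this period, 26.1% were called higher and 41.6% lower. In period II all 7 passed. Of the 6 that had not been selected on this change, 2 were called higher and 3 lower at 28 dpn, the latter with a weak RDX probe-set that also passed through 1 dpn alone, against 29% and 41.4% of 12114 probe-sets. In period III all 6 probe-sets of ACTB, CFL1, RDX and ACTR2 were lower at 188 dpn, a direction that their selection fixes. The background there was 18.3% called higher and 35.7% lower of 10959 probe-sets, and nothing is read from that count. The animals at 28 dpn enter periods II and III, so the period II values of these 4 genes are not independent of the selection either, and the piglets link the period I value of CORO1C to its selection in the same way.

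**Figure D1:**
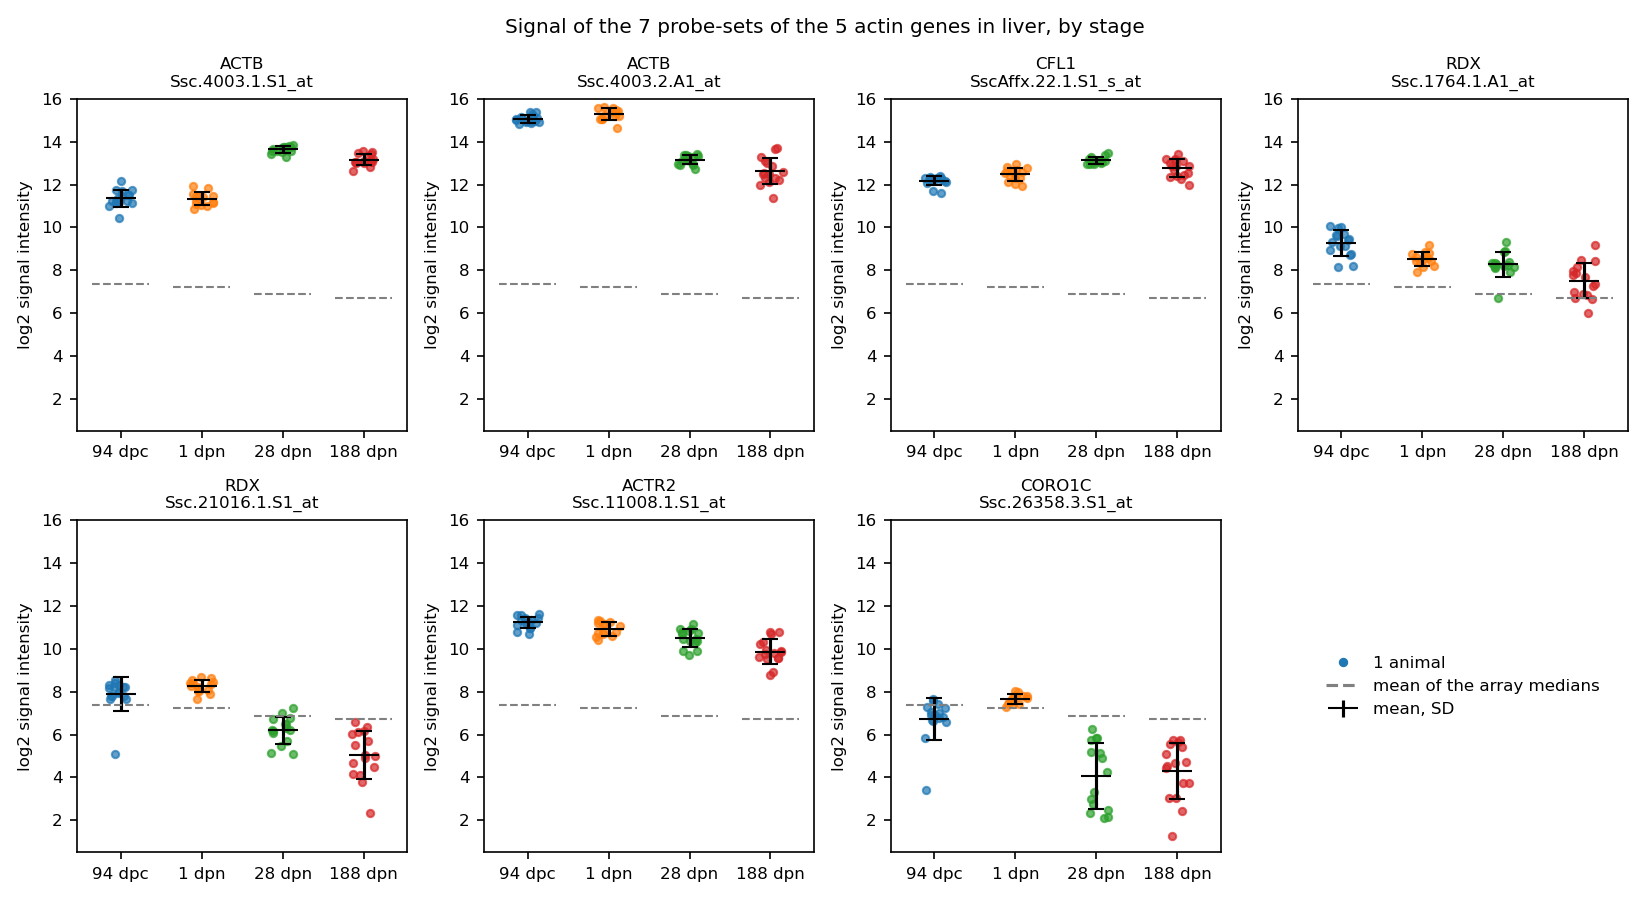
Log2 signal intensity (y axis) of the 7 probe-sets in every animal at the 4 stages (x axis), with the stage mean and SD in black and the mean of the array medians as a dashed line. The ACTB probe-sets separate the stages before 28 dpn from those after 1 dpn in opposite directions, and CORO1C lies below the dashed line at 28 dpn and 188 dpn.

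**Figure D2:**
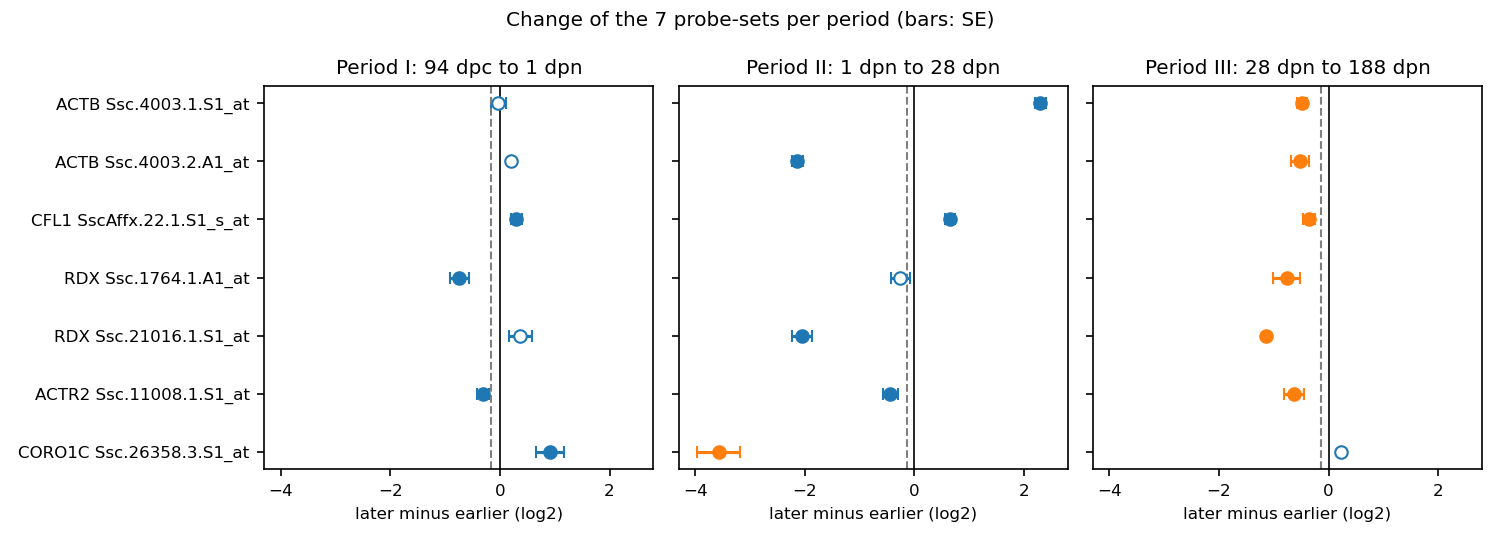
Change of each probe-set per period (x axis, log2, later minus earlier) with its standard error. Filled blue points passed the test, open points did not pass or were not tested, orange points are the changes that chose the gene and have no test, and the dashed line is the median change over the probe-sets tested. The blue points of CORO1C in period I and of Ssc.21016.1.S1_at in period II belong to probe-sets that passed the intensity filter through 1 dpn alone.

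The probe-sets of ACTB moved in opposite directions from 1 dpn to 28 dpn. The probe-set Ssc.4003.1.S1_at had a lowest, median and highest value of 10.42, 11.31 and 12.15 at 94 dpc, 10.87, 11.32 and 11.93 at 1 dpn, 13.29, 13.65 and 13.86 at 28 dpn, and 12.63, 13.10 and 13.54 at 188 dpn. The piglets lay within the range of the fetuses, and every pig at 28 dpn and 188 dpn lay above all of them. It rose by 2.30 in period II (SE 0.10, q = 2.25e-19, limma), or 4.94-fold, higher in 15 of 15 pigs than in any piglet. Its change in period I, -0.03 (SE 0.13, P = 0.84, q = 0.181, limma), stayed short of the threshold.

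The probe-set Ssc.4003.2.A1_at of ACTB stood at 14.82, 15.03 and 15.40 (lowest, median, highest) at 94 dpc, 14.64, 15.30 and 15.64 at 1 dpn, 12.71, 13.16 and 13.40 at 28 dpn, and 11.39, 12.52 and 13.71 at 188 dpn. Here the early stages overlapped at the top, and every pig at 28 dpn and 188 dpn lay below all fetuses and piglets. The period II change was -2.13 (SE 0.10, q = 1.95e-18, limma), lower in 15 of 15 pigs than in any piglet. In period I it differed by 0.21 and was not tested, because its spread did not reach the limit on SD. In period III the difference was -0.48 (SE 0.09) for Ssc.4003.1.S1_at and -0.53 (SE 0.16) for Ssc.4003.2.A1_at, with overlapping ranges for both, and the SD among animals of the latter was 0.62 at 188 dpn against 0.21 at 28 dpn.

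Within each array, Ssc.4003.1.S1_at minus Ssc.4003.2.A1_at averaged -3.71 (SD 0.40, n = 16) at 94 dpc and -3.95 (SD 0.44, n = 14) at 1 dpn. It averaged 0.49 (SD 0.24, n = 15) at 28 dpn and 0.53 (SD 0.75, n = 16) at 188 dpn. Its zero has no meaning between different probes, but the highest fetus or piglet, at -2.92, lay below the lowest of the older pigs, at -0.71. Averaged into 1 value per gene, the ACTB probe-sets differed by 0.09 between 1 dpn and 28 dpn, so a single figure for ACTB hides both changes.

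**Figure D3:**
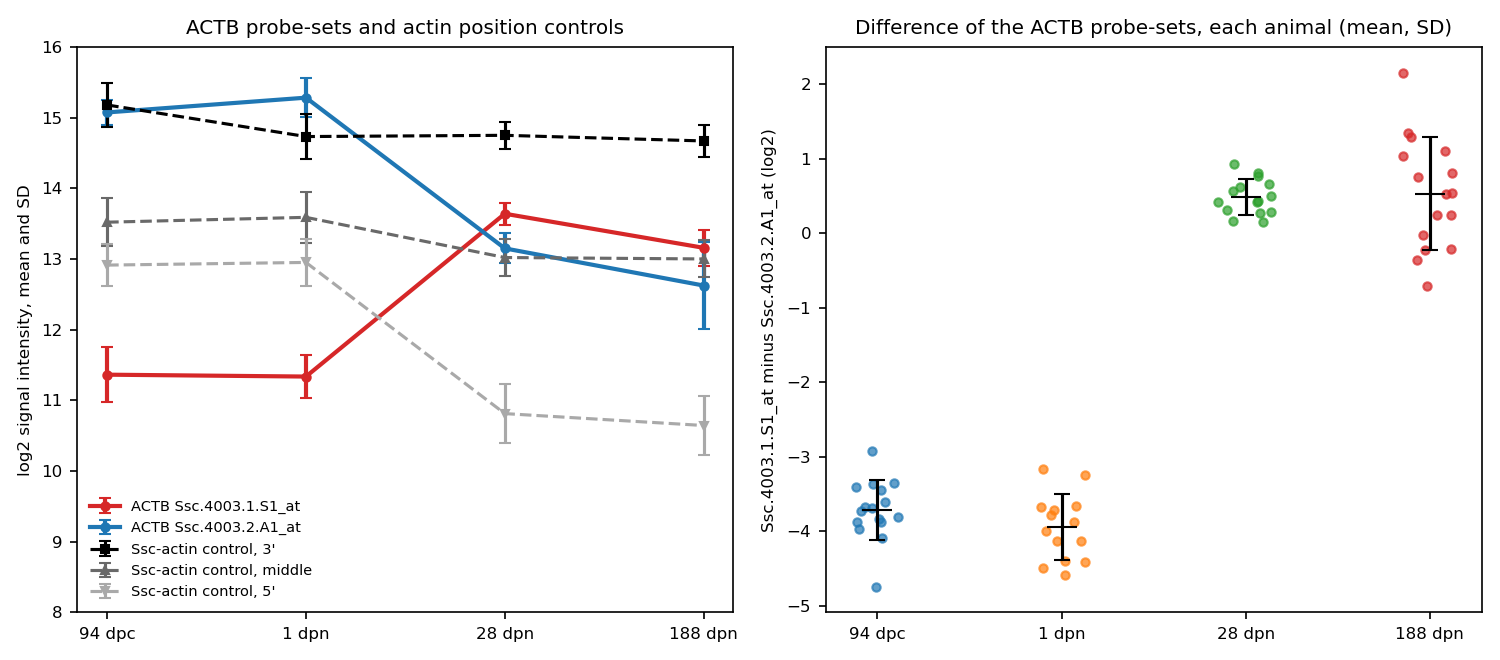
Left, mean and SD of log2 signal (y axis) at the 4 stages for both ACTB probe-sets and for the 3', middle and 5' Ssc-actin control probe-sets. Right, Ssc.4003.1.S1_at minus Ssc.4003.2.A1_at in each animal (y axis, log2), with mean and SD, where all animals at 94 dpc and 1 dpn lie below all at 28 dpn and 188 dpn.

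Neither ACTB probe-set carries a 3' or 5' position in the annotation. The array has actin control probe-sets named by position, but the annotation assigns the Ssc-actin set to ACTG1 and gives the Ss_Actin set no symbol, so they are shown beside ACTB and not as ACTB. The 3' Ssc-actin probe-set averaged 15.18 in fetuses and 14.73 in piglets, then 14.75 at 28 dpn and 14.67 at 188 dpn. The 5' one had 12.91, 12.95, 10.81 and 10.64 at these stages, and no animal of the later pair of stages reached the lowest of the earlier pair. The 3' end thus held its level through period II while the 5' end was lower.

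The 3' minus 5' difference of Ssc-actin averaged 2.27 (SD 0.37) at 94 dpc, 1.78 (SD 0.35) at 1 dpn, 3.94 (SD 0.43) at 28 dpn and 4.03 (SD 0.44) at 188 dpn. It separated the early from the late stages without overlap, whereas the 3' minus middle difference was 1.66, 1.14, 1.73 and 1.67. For the Ss_Actin set, whose signals were weaker, the 3' minus 5' difference was -1.32, -1.23, 0.71 and 0.30. The GAPDH control differed far less between 1 dpn and 28 dpn, from 0.39 (SD 0.27) to 0.79 (SD 0.13), and that of EF1A, an elongation factor, went from -0.14 (SD 0.08) to 0.39 (SD 0.11). At 94 dpc and 188 dpn the GAPDH difference averaged 1.05 and 0.64, and that of EF1A -0.02 and 0.56. These differences moved with the ACTB probe-sets in period II, and their part in the ACTB result was not tested for the actin controls. With the GAPDH difference as a covariate the ACTB changes in period II were 2.17 and -2.10.

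The brightest of 6 ACTG1 probe-sets, Ssc.13874.1.S1_at, ran like the 3' control, with means of 15.22, 14.69, 14.80 and 14.71 from 94 dpc to 188 dpn. It fell by 0.53 in period I (SE 0.12, q = 4.11e-05) and its change of 0.11 in period II did not pass the test (SE 0.10, P = 0.305, q = 0.0623, limma). The weaker ACTG1 probe-sets did not all follow it. From 1 dpn to 28 dpn the mean of Ssc.9052.1.S1_at went from 8.40 to 7.48 and that of Ssc.13874.3.A1_at from 6.61 to 3.22, below the array median in most animals, and 1 of the other 5 was called opposite to the brightest in period II and 2 in period III. Probes of such similar transcripts may read each other's RNA, so the share of ACTB and ACTG1 in any of these signals is uncertain.

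CFL1, whose product disassembles filaments, rose at both early steps. Its values were 11.59, 12.25 and 12.40 (lowest, median, highest) at 94 dpc, 11.94, 12.56 and 12.98 at 1 dpn, 12.96, 13.09 and 13.46 at 28 dpn, and 11.97, 12.86 and 13.41 at 188 dpn. All pigs at 28 dpn lay above all fetuses, and 12 of 15 lay above all piglets. CFL1 rose by 0.30 in period I (SE 0.10, q = 0.0025) and by 0.65 in period II (SE 0.10, q = 1.44e-07), then differed by -0.36 (SE 0.11) in period III. The period I call was lost with quantile normalization (0.17) and with the GAPDH covariate (0.26). In rising order the stages were 94 dpc, 1 dpn, 188 dpn and 28 dpn, and 1 dpn and 188 dpn overlapped, with a difference of 0.29 against a pooled SD of 0.36. The probe-set SscAffx.22.1.S1_s_at is of a type that can match several transcripts.

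RDX, the membrane linker, ended lower at 188 dpn than at 94 dpc with both probe-sets, along different courses. For Ssc.1764.1.A1_at the lowest, median and highest values were 8.15, 9.38 and 10.07 at 94 dpc, 7.94, 8.55 and 9.17 at 1 dpn, 6.69, 8.27 and 9.33 at 28 dpn, and 6.02, 7.51 and 9.20 at 188 dpn. All stages overlapped in this probe-set, though 13 of 16 pigs at 188 dpn lay below every fetus. It fell by 0.74 in period I (SE 0.17, q = 8.49e-05), did not pass the test in period II at -0.25 (SE 0.17, P = 0.146, limma), and differed by -0.76 (SE 0.24) in period III.

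The weaker RDX probe-set, Ssc.21016.1.S1_at, was at 5.11, 8.08 and 8.57 at 94 dpc, 7.66, 8.32 and 8.71 at 1 dpn, 5.11, 6.22 and 7.24 at 28 dpn, and 2.34, 5.03 and 6.57 at 188 dpn. Its fall came after birth: no pig at 28 dpn or 188 dpn reached the lowest piglet. The change was 0.37 in period I (SE 0.21, P = 0.0904, limma), short of the threshold, and -2.05 in period II (SE 0.18), or -1.35 with signals below the array median raised to that median. It lay above the array median in 14 of 14 piglets, 2 of 15 pigs at 28 dpn and 0 of 16 at 188 dpn. The piglets alone brought it through the intensity filter in period II, so that change is given as a description, and its period III difference of -1.15 rests on weak signals and was -0.19 with that floor. Within an array, Ssc.1764.1.A1_at minus Ssc.21016.1.S1_at averaged 0.26 (SD 0.42) at 1 dpn and 2.07 (SD 0.45) at 28 dpn, without overlap.

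Of the other genes that tie actin to membranes, EZR, the ezrin gene, fell by 0.66 in period I (SE 0.13, q = 6.77e-06), was at -0.04 in period II (SE 0.12, q = 0.137) and fell by 0.37 in period III (SE 0.11, q = 0.00121). SLC9A3R1, the scaffold that ERM proteins bind, rose by 0.61 in period I (SE 0.09, q = 7e-08). SPTAN1, the alpha chain of non-erythroid spectrin, fell by 1.85 in period II (SE 0.11, q = 2.7e-15), and EPB41L2, a protein 4.1 relative, rose by 0.81 (SE 0.14, q = 1.54e-06). In period III ADD3, the gamma-adducin of the membrane skeleton, fell by 0.91 (SE 0.16, q = 5.78e-06). Over this list of 9 measured genes, RDX included, 1 rose and 5 fell of 8 tested in period I, and 4 rose and 1 fell of 8 in period II. In period III 1 rose and 4 fell of 6, RDX among the latter by selection. Of all genes tested, each by its brightest probe-set, 33.9% rose and 35.4% fell in period I, 33.2% and 39.1% in period II, and 21.7% and 39% in period III.

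ACTR2 declined at every step. Its values were 10.70, 11.24 and 11.62 (lowest, median, highest) at 94 dpc, 10.42, 10.94 and 11.35 at 1 dpn, 9.73, 10.47 and 11.17 at 28 dpn, and 8.77, 9.82 and 10.79 at 188 dpn. Neighbouring stages overlapped throughout, and 14 of 16 pigs at 188 dpn lay below every fetus. The fall was 0.30 in period I (SE 0.11, q = 0.00361) and 0.44 in period II (SE 0.14, q = 0.00116), and the difference in period III was -0.63 (SE 0.18). With array medians subtracted the first values became -0.16 and -0.09, neither of which passed the test, whereas with quantile normalization they were -0.39 (q = 0.00103) and -0.44 (q = 0.000817).

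The 9 genes of the Arp2/3 complex moved in both directions after birth. In period II, 2 of 8 tested rose and 5 fell (25% and 62.5%, against 33.2% and 39.1% of all genes), and in period I, 2 of 7 rose and 2 fell (28.6% each, near the 33.9% and 35.4% of all genes). ARPC1B, one of alternative subunits of the same position in the complex and known from blood and immune cells, rose by 1.96 in period II (SE 0.13, q = 6.02e-15), while ARPC1A, its alternative, fell by 0.78 (SE 0.09, q = 5e-10). ARPC4, a core subunit, rose by 0.92 (SE 0.10, q = 3.51e-10). ACTR3, the partner of ACTR2 as actin-related subunit, fell by 0.89 (SE 0.11, q = 6.5e-09) and ARPC2, also of the core, by 1.29 (SE 0.19, q = 1.14e-07). Another ARPC1A probe-set was called in the opposite direction, so its change depends on the probe-set.

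In period III, 0 of 7 tested Arp2/3 genes rose and 5 fell (71.4%, against 39% of all genes), ACTR2 among them by selection. ARPC1B fell by 0.70 (SE 0.11, q = 1.02e-06), ARPC5 by 0.69 (SE 0.12, q = 8.08e-06), ARPC5L by 0.66 (SE 0.08, q = 4.34e-08) and ACTR3 by 0.55 (SE 0.13, q = 0.000289). The median change of the tested Arp2/3 genes was -0.63, against -0.14 for all genes tested. That median is the change of ACTR2 itself, which was chosen for it, so nothing is read from this comparison.

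**Figure D4:**
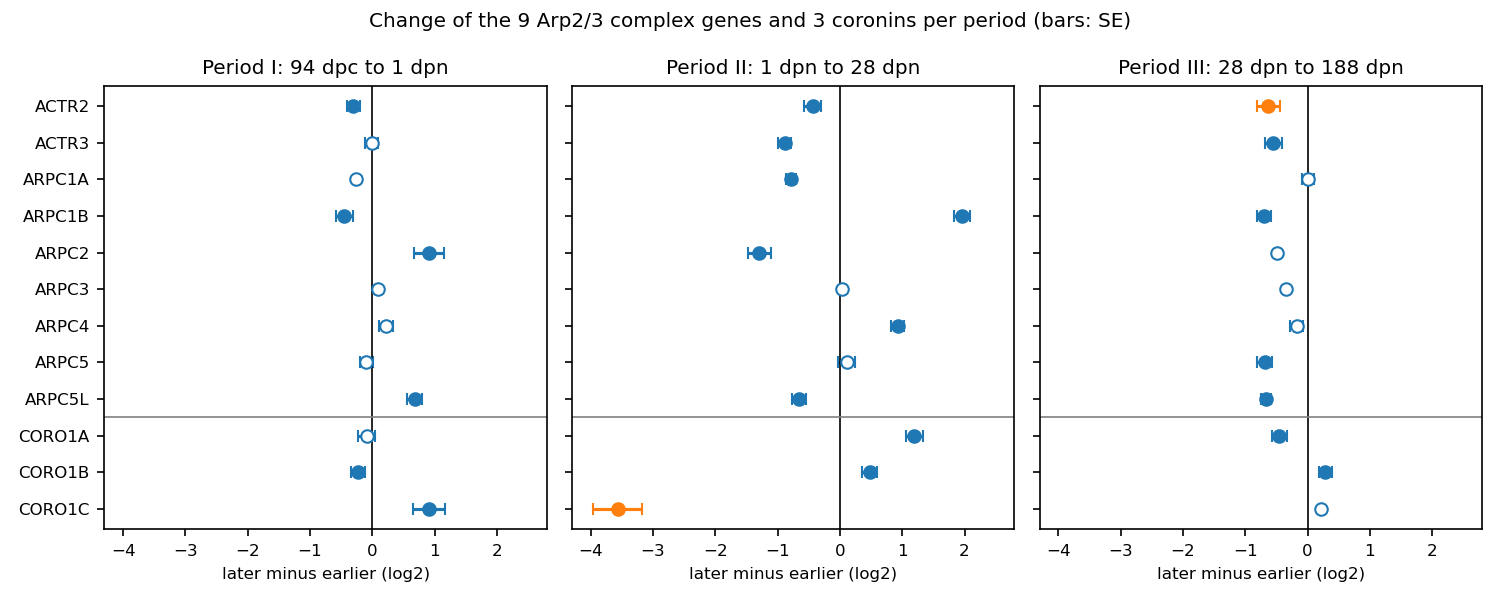
Change per period (x axis, log2, later minus earlier) with standard error for the 9 genes of the Arp2/3 complex, above the grey line, and 3 coronins, below it. Filled blue points passed the test, open points did not or were not tested, and the orange points of ACTR2 and CORO1C are changes that chose the gene. In period II ARPC1B, ARPC4, CORO1A and CORO1B lie right of 0 and ACTR2, ACTR3, ARPC1A, ARPC2, ARPC5L and CORO1C left of it.

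CORO1C was near the array median around birth and well under it later. The lowest, median and highest values were 3.42, 6.90 and 7.67 at 94 dpc, 7.28, 7.66 and 8.01 at 1 dpn, 2.12, 4.25 and 6.26 at 28 dpn, and 1.26, 4.61 and 5.77 at 188 dpn. It lay above the array median in 3 of 16 fetuses, 14 of 14 piglets and in 0 of 15 and 0 of 16 pigs at 28 dpn and 188 dpn, and no older pig reached the lowest piglet. The piglets were also the most uniform, with an SD of 0.22 against 0.99, 1.54 and 1.33 at 94 dpc, 28 dpn and 188 dpn. In period I CORO1C differed by 0.91 (SE 0.26), a description only, since the piglets also enter the change that chose it and alone brought it through the intensity filter. The change that chose it, 28 dpn against 1 dpn, was -3.57 (SE 0.39), or -0.77 with the array median as floor. In period I it was at 0.24 with that floor and at 0.06 with the GAPDH covariate, and neither passed the test. The fetus with the lowest value was also the lowest in Ssc.21016.1.S1_at of RDX and its array the least correlated of its stage, and without the least correlated array of each stage its period I difference was 0.71. In period III it failed the filters, with a difference of 0.22.

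The other coronins ran differently. CORO1A, the coronin of blood cells, was at -0.09 in period I (SE 0.14, P = 0.521, q = 0.122, limma). It rose by 1.19 in period II (SE 0.14, q = 2e-09) and fell by 0.45 in period III (SE 0.13, q = 0.0012). CORO1B, a broadly expressed relative, fell by 0.23 in period I (SE 0.11, q = 0.0133), rose by 0.48 in period II (SE 0.12, q = 0.000128) and by 0.29 in period III (SE 0.11, q = 0.00768). Both thus rose over the step at which CORO1C was lower.

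Beyond the 5 genes, 87 further actin genes of 13 lists (actin isoforms, monomer binding, nucleation, capping, bundling, myosin II, focal adhesion and others) were measured, and each was represented by its brightest probe-set. The list of SRF and its coactivators had no measured gene. Of these 87, 7 also stand on the study's list. Among the 80 that do not, 14 rose and 22 fell of 60 tested in period I. These are 23.3% and 36.7%, against 33.9% and 35.4% of all genes. For period II, 26 rose and 19 fell of 64 (40.6% and 29.7%, against 33.2% and 39.1%). The period III counts were 7 higher and 29 lower of 56, with 12.5% higher against 21.7% of all genes. In period III 51.8% of these actin genes were therefore called lower, against 39% of all genes, with a median change of -0.32 against -0.14 for all genes tested.

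The scaling of the arrays sets part of these splits. With array medians subtracted, all actin genes including the 5 gave 28 higher and 18 lower of 73 tested in period I. They gave 48 and 18 of 82 in period II and 13 and 25 of 70 in period III. Without that step the counts were 17 and 25 of 68, 29 and 25 of 74, and 7 and 35 of 64. The changes that chose the 5 genes are counted in periods II and III. Of all genes with medians subtracted, 41.8% were called higher and 26.3% lower in period I. The shares were 54.6% and 19.3% in period II, and 34.9% and 22.8% in period III.

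**Figure D5:**
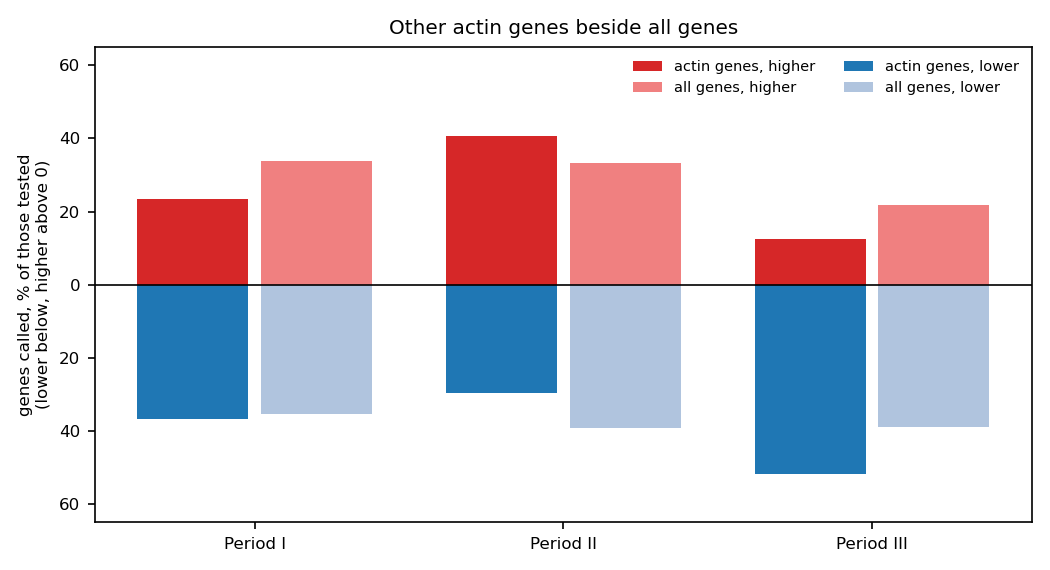
Share of tested genes called higher (above 0) and lower (below 0) in each period, as a percentage, for actin genes outside the 5 and the study's list (dark bars) and for all genes (pale bars). In period III 51.8% of the 56 actin genes and 39% of all genes were called lower.

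Genes that bind monomers or take filaments apart, the group of CFL1, are set beside the shares of all genes given above. Of 10 tested, 4 rose and 2 fell in period I, and 5 rose and 5 fell in period II. In period III 0 of 7 rose and 5 fell, CFL1 among them by selection. DSTN, the destrin relative of cofilin, fell by 1.33 in period I (SE 0.09, q = 3.02e-14) and by 0.84 in period II (SE 0.12, q = 5.14e-08), opposite to CFL1. PFN2, a profilin that loads actin with ATP, had changes of -1.54 and -1.77 in periods I and II (SE 0.12 and 0.23). GMFB, which removes Arp2/3 branches, was at -2.07 in period II (SE 0.21). Its mean was 7.86 at 1 dpn but 5.78 at 28 dpn, under the mean array median of 6.89. That change is therefore a description only, though it counts among the 5 that fell. GMFG, the GMFB relative of blood cells, fell by 1.14 in period III (SE 0.12, q = 1.49e-09). TMSB10, a thymosin that sequesters monomers, fell by 0.70 in period III (SE 0.09, q = 4.14e-08).

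Genes of filament bundling and side binding changed in both directions in period I. MARCKS, which links filaments to the membrane, fell by 1.52 (SE 0.12, q = 6.24e-13) and TAGLN2, a transgelin, rose by 1.46 (SE 0.11, q = 1.27e-13). In period II TPM4, a tropomyosin, fell by 1.37 (SE 0.10, q = 1.24e-13) and TPM2 rose by 1.18 (SE 0.12, q = 1.11e-10). LCP1, the plastin of leukocytes, rose by 1.28 in period II and fell by 0.98 in period III, but 2 of its 5 probe-sets were called the opposite way in period II. VIL1, the villin of microvilli, fell in every period, by 0.52 in period I and by 0.78 in period II, and CAPZA2, a subunit of the barbed-end capper, fell by 0.81 in period II and by 0.72 in period III.

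Both smooth muscle actins were measured. ACTA2, a marker of activated stellate cells and vessel walls, fell by 0.50 in period II (SE 0.19, q = 0.00374) and rose by 0.83 in period III (SE 0.17, q = 4.64e-05), and TAGLN, another smooth muscle gene, rose by 0.78 in period III (SE 0.15, q = 1.64e-05). ACTG2, the enteric smooth muscle actin, rose by 1.41 in period I (SE 0.25, q = 2.69e-06), where its other probe-set was called the opposite way, and fell by 0.90 in period III (SE 0.24, q = 0.000838). TES, a focal adhesion protein, was at -1.50 in period III (SE 0.17, q = 4.88e-09), the largest fall in that period among the actin genes named here.

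Of the study's own actin list, 17 of 24 genes were measured, and 0 rose and 10 fell of 13 tested in period III. Of all genes, 21.7% rose and 39% fell there. ACTB, CFL1, RDX and ACTR2 are among the 10 by selection. The list was made on these animals, set against offspring of the adequate protein diet, so this count is not independent evidence of its direction. Its members that fell include LBP and CD14, which bind and present lipopolysaccharide and are not filament proteins, with -1.07 (SE 0.23) for LBP.

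Markers of other cells were set beside these genes. Of all genes tested, 33.9% rose and 35.4% fell in period I, 33.2% and 39.1% in period II, and 21.7% and 39% in period III. In period I, 5 of 6 tested erythroid markers fell and 0 rose, with sums of 7 markers from 2710 to 27332 at 94 dpc and from 1162 to 4063 at 1 dpn. Among those tested, KLF1 passed the intensity filter through 94 dpc alone. Of the hepatocyte markers, 5 of 6 tested fell in period II, with sums of 307844 to 505463 at 1 dpn and 241421 to 435324 at 28 dpn. Cholangiocyte markers fell in 3 of 3 tested cases in period III, with sums from 1095 to 3054 at 28 dpn and from 784 to 1407 at 188 dpn. Of these, KRT19 passed the intensity filter through 28 dpn alone. The summed signal of 7 macrophage markers, all above the array median in most animals from 94 dpc to 28 dpn, ranged from 8587 to 20470 at 94 dpc, from 15669 to 32552 at 1 dpn, from 38920 to 61976 at 28 dpn and from 25515 to 41652 at 188 dpn. In period II, 5 of 7 rose and 0 fell, and in period III 7 of 7 fell, of which MARCO passed the intensity filter through 28 dpn alone. Of 6 tested lymphocyte and NK markers 6 rose in period II, with 5 of 11 still below the array median at 28 dpn, among them PTPRC. The sum of all 11 ranged from 518 to 1104 at 1 dpn and from 1489 to 7664 at 28 dpn. Of those tested, CD3D, CD2, CD8A, GNLY and LCK passed the intensity filter through 28 dpn alone, which favours a rise. Of 6 tested granulocyte markers, 6 fell in period II, with sums of 2340 to 23731 at 1 dpn and 486 to 2041 at 28 dpn. Among these, PRTN3, S100A8, S100A12 and LTF passed the intensity filter through 1 dpn alone. The filter favours a fall in such markers, so this count is a description only. Proliferation markers fell in 7 of 8 and 8 of 8 tested cases in periods II and III, with sums of 1184 to 5999 at 28 dpn and 619 to 1109 at 188 dpn. For period III, TOP2A, CCNB1, CCNB2, MCM2, MCM3 and AURKA passed the intensity filter through 28 dpn alone, which favours a fall. Of endothelial markers, 2 rose and 2 fell of 6 tested in period I, and 2 rose and 3 fell of 7 in period II. In period III, 1 of 6 rose and 3 fell. Of stellate and mesenchymal markers, 2 rose and 4 fell of 8 tested in period I, and 2 rose and 4 fell of 9 in period II. In period III, 3 of 8 rose and 1 fell. The part of these cells in the changes of the actin genes was not tested.

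Within a stage, 40 relations between the brightest probe-sets of the 5 genes were computed over animals, of which 14 were positive. One held after Benjamini-Hochberg adjustment. At 188 dpn CFL1 was lower in pigs in which ACTR2 was higher, with Pearson r = -0.81 (permutation p = 0.0001, adjusted p = 0.004) and a Spearman coefficient of -0.82 (p = 0.00021, adjusted p = 0.0084) over 16 pigs, and r = -0.73 without the 2 pigs farthest from the median of CFL1. With array medians subtracted r was -0.72 and the adjusted p = 0.067, and 0 of 40 relations held. The same pair had r = -0.57 at 28 dpn (adjusted p = 0.15), -0.26 at 1 dpn (adjusted p = 0.56) and -0.18 at 94 dpc (adjusted p = 0.67). RDX and ACTR2 correlated with r between 0.54 and 0.61 at each of the 4 stages, none of which passed the adjustment, and at 188 dpn r was 0.18 without the 2 pigs farthest from the median of RDX.

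Over all 61 arrays, which share scaling and differ by stage, the genes most like each probe-set were taken from 4995 genes as a description. The signal of Ssc.4003.2.A1_at of ACTB ran closest to S100G (r = 0.94), MAGED1 (0.94) and AFP (0.94), the alpha-fetoprotein gene. For Ssc.4003.1.S1_at, added after its values were seen, the closest were ELAVL1 (0.93), KHK (0.92) and ERGIC1 (0.92). With stage means removed, none of these 6 exceeded 0.33, so the likeness lay in the stages. ACTR2 ran with SF3B1 (0.95), SEC63 (0.94) and LOC100511376 (0.94), and these kept r = 0.88, 0.87 and 0.86 with stage means removed. The same arrays chose these genes, and array medians were not subtracted. Likeness between animals and effects shared by a whole array therefore cannot be told apart here.

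For CFL1 the closest genes were CRYAB (0.82), PSMB7 (0.81) and NDUFB8 (0.81), with r = 0.50, 0.64 and 0.69 after stage means were removed. For Ssc.1764.1.A1_at of RDX they were CBX3 (0.85), SRBD1 (0.85) and PSMC6 (0.84). The other RDX probe-set, also added afterwards, ran closest to ACTR3 (0.93), the Arp3 gene, with 0.74 after stage means were removed. CORO1C was nearest to IL13RA1 (0.81), LOC100513397 (0.80) and AP2M1 (0.80), with 0.27, 0.32 and 0.11 after that step.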

How the data were processed

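Each of the 61 LP arrays holds, as deposited, 1 linear signal intensity per probe-set, which the authors had scaled to a common mean (500.127 to 500.229 with 2% trimmed at each end). GCOS 1.1.1 is named by the submitters. The study's GC-RMA values, present calls, sex, mother and weight did not enter. On log2 values, testing required a signal over the median of its array in 50% or more of the animals at 1 of the stages compared, and an SD over 0.25. Adjacent stages were compared in limma 3.58.1 (R 4.3.3) with stage as the single term, two-sided, and Storey q was taken over all probe-sets tested. The script was tested on simulated data. Of 23999 probe-sets that are not controls, 10069 had exactly 1 symbol, 198 had several and 13732 had none. The pig RefSeq table served for names only. Each gene was represented by its brightest probe-set. Permutation tests used 100000 draws. Named genes are all probe-sets of the 5 genes, the 3 most similar genes of each, and up to 3 called genes of largest change per list and period. Further genes of the Arp2/3, coronin and ERM lists, ACTG1, CD14 and the second probe-sets' similar genes were added after their values were seen. The 5 genes and the lists were chosen with earlier results of these data known. Alternatives comprised Benjamini-Hochberg adjustment, dropping the intensity filter or the SD filter, quantile normalization, subtracting array medians, a floor at the array median, 1 fit over the 4 stages, array weights (statmod 1.5.0), a pseudocount of 16, the 3' to 5' difference of GAPDH as covariate, gene means over probe-sets, and leaving out either 9 arrays with outlying 3' to 5' differences (beyond 3 scaled MADs) or the array of each stage that resembled its stage least. The number of arrays limits the precision. Sequences were not analysed here. The genes of 1 of the lists are not reported here by name.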

Additional observations from a re-analysis of the deposited data

How the results depend on the processing

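Of 151 alternative values for tested changes of the 7 probe-sets, 131 kept their direction and side of the threshold, and the sign turned in 8. Of 88 for the changes that chose the genes, which have no threshold, 0 turned in sign and 86 moved by less than the SD among animals. Of 25 for untested changes, 2 turned, both of CORO1C in period III, to -0.16 with the array median as floor and -0.06 with the GAPDH covariate. In period I the small change of Ssc.4003.1.S1_at of ACTB became 0.118 with array medians subtracted, 0.0205 on leaving out arrays of outlying position differences, 0.373 with the GAPDH covariate and 0.0912 as the mean of both probe-sets, and passed in none of these. In period I, Ssc.4003.2.A1_at of ACTB passed the test without the SD filter (0.21), with array medians subtracted (0.35), on leaving out arrays whose 3' to 5' differences were outlying (0.23) and without the least correlated arrays (0.23). In the same period CFL1 no longer passed with quantile normalization (0.17) or the GAPDH covariate (0.26), Ssc.1764.1.A1_at of RDX with the mean of its probe-sets (-0.18), ACTR2 with array medians subtracted (-0.16) or all 4 stages in 1 fit (-0.30), and CORO1C with the array median as floor (0.24) or the GAPDH covariate (0.064). Ssc.21016.1.S1_at of RDX passed with quantile normalization (0.58) and array medians subtracted (0.52), and was at -0.44 with the GAPDH covariate and -0.18 as the mean of both probe-sets, not passing in either. In period II the mean of the ACTB probe-sets (0.086) did not pass the filters and reversed the sign of Ssc.4003.2.A1_at, the mean of the RDX probe-sets passed (-1.15), ACTR2 did not pass with array medians subtracted (-0.088), Ssc.1764.1.A1_at of RDX was at 0.0948, not passing, with array medians subtracted, and CORO1C moved to -0.77 with the array median as floor. In period III that floor moved Ssc.21016.1.S1_at of RDX to -0.19. The number of relations between genes that held was 0 with array medians subtracted. The cause was not tested in any of these cases. The number of all probe-sets called stayed within 1.5 times, but the split of higher and lower calls moved with scaling, from 3189 and 5091 to 4137 and 4003 in period I, from 3510 and 5018 to 6013 and 2878 in period II and from 2008 and 3912 to 3627 and 2466 in period III with array medians subtracted. Quantile normalization gave 3820 and 4266, 4336 and 4121, and 2740 and 2760. The probe-sets tested had a median change of -0.16 in period I, -0.14 in period II and -0.14 in period III, which became -0.01, 0.21 and 0.02 with array medians subtracted. With the GAPDH covariate 9 of 68 tested actin genes were higher in period I in place of 17. The share of all genes higher there was 26.3% in place of 33.9%. No paired analysis was possible because the labels give the stages no shared replicate numbers. Signals under the array median, those of CORO1C after 1 dpn and of Ssc.21016.1.S1_at after 1 dpn, were not separated from background, so the sizes of their changes are the least certain.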
